A study of Mus musculus with 66 samples.

Results

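The genes described here are those of the cytosolic ribosomal proteins, the protein part of the ribosomes that translate nuclear messages. They were chosen by name alone: an entry was a member if its symbol was Rpl or Rps followed by a number, with or without a letter and a further number, or was Rplp0, Rplp1, Rplp2 or Rpsa. Names with "-ps" were left out. The rule found 89 members among 55421 entries, of which 53 carry the large-subunit prefix Rpl and 36 the small-subunit prefix Rps. No expression value entered the choice.

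A eukaryotic ribosome is built from a small subunit, which reads the message, and a large subunit, which joins the amino acids. Each ribosomal protein is needed in about equal amount, and most of their messages start with a run of pyrimidines, the 5′ terminal oligopyrimidine (TOP) tract, through which the growth-regulating kinase complex mTORC1 and the RNA-binding protein LARP1 control how fast they are translated. In neurons these messages are found in cell bodies and also in dendrites and axons.

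Poly(A) RNA was sequenced from hippocampus of C57BL/6 mice that had been injected with brain extract from Alzheimer's disease (AD) or from controls (Ctrl). The labels give an age of 3 months or 12 months and 1, 3 or 5 months post injection (mpi), and no transgene. Ctrl groups of the 3-month cohort have 5 libraries at each time, and its AD groups have 6, 5 and 3 in order of time. In the 12-month cohort the Ctrl groups have 5, 6 and 7 libraries and the AD groups 6, 6 and 7. Whether the age is that at injection or at collection is not stated. An age of 3 months at 5 mpi can only be the age at injection, and the 12-month labels have the same form. Later times within a cohort are then also older mice, so effects of time after injection and of age at collection cannot be told apart. The number of animals is not stated either. Every p-value therefore rests on the variation among the 66 libraries alone, part of which may be technical.

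Sequencing depth was 42462638 to 65907005 reads per library, and the members took 1.04% to 1.40% of them. Values are the deposited normalised read counts, scaled to library size and then by 1 further factor for each library. Neuron markers (Rbfox3, Snap25, Syt1, Slc17a7, Gad1, Gad2) summed to group means of 5542 to 6428 and markers of hippocampal fields (Prox1, Fibcd1, Wfs1, Mpped1, C1ql2) to 553 to 658, so both were present throughout. Markers of choroid plexus epithelium (Ttr and 5 others), a tissue that borders the hippocampus, varied most, from 56.2 to 10065 in single libraries. In bulk tissue, fewer cells of a type and less RNA per cell cannot be told apart.

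The start of the message was looked at first, since the TOP tract lies there. RefSeq promoters (GRCm38.p6) were found by symbol for 64 of the 89 members, with 76 start sites. The first motif searched was CTTTT, another with a final C was CTTTC, and one with an added leading C was CCTTT. Overlaps were allowed, and both strands were read within 20 bases on either side of the start. On the strand of the gene, 23 of the 76 start sites (30.3%) held at least 1 of them, against 3631 of all 32851 start sites (11.1%). On the opposite strand the shares were 6.6% and 10.5%. The windows below show members with such runs, and then 3 members without one that return in the comparisons. Each is 30 bases long, 5′ to 3′ on the gene's strand, and capitals mark the motif.
Rpl12, chr2:32961702-32961731, plus strand: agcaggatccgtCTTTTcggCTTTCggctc
Rpl27a, chr7:109519185-109519214, plus strand: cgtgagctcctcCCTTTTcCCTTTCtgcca
Rps27, chr3:90213629-90213658, minus strand: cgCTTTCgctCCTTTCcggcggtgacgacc
Rpl35, chr2:39005112-39005141, minus strand: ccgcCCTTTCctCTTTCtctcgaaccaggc
Rplp2, chr7:141447641-141447670, plus strand: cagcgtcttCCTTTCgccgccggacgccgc
Rpl11, chr4:136053374-136053403, minus strand: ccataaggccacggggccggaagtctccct
Rps15, chr10:80292421-80292450, plus strand: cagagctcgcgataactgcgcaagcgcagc
Rps21, chr2:180257369-180257398, plus strand: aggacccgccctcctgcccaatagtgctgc
A match describes these letters and no more, and the annotated start can lie some bases from the start used in hippocampus.

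By the annotation, 83 members are protein-coding and 6 are pseudogenes (Rps3a2, Rps3a3, Rps4l, Rps12l1, Rpl6l and Rpl32l) that carry plain symbols. They lie on 19 chromosomes, 15 of them on chromosome 7 and 4 on X. Their transcripts are short, with a median of 681 bases (271 to 3706, 83 members). Per kilobase of transcript, the level in the 3-month cohort had a median of 173 over these 83 members, and 74 of them lay above 50. In the 12-month cohort the median was 176.

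The highest levels per kilobase were those of Rps24 with 616, Rps15 with 499.5 and Rpl9 with 401, proteins of the small, the small and the large subunit. Rps24 and Rps15 take part in the maturation of the small subunit of the ribosome. Paralogs known from other tissues were low or absent: Rpl3l, the striated-muscle form of Rpl3, had 0.23 against 314 for Rpl3 per kilobase, Rpl39l, a testis form of Rpl39, had 0.09, and Rpl10l, the testis form of Rpl10, had no read in any of the 66 libraries. Rps27l stood at 16.7 against 337 for Rps27, Rpl22l1 at 58.4 against 189 for Rpl22, and Rpl7l1 at 32.99 against 222 for Rpl7, all per kilobase.

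**Figure D1:**
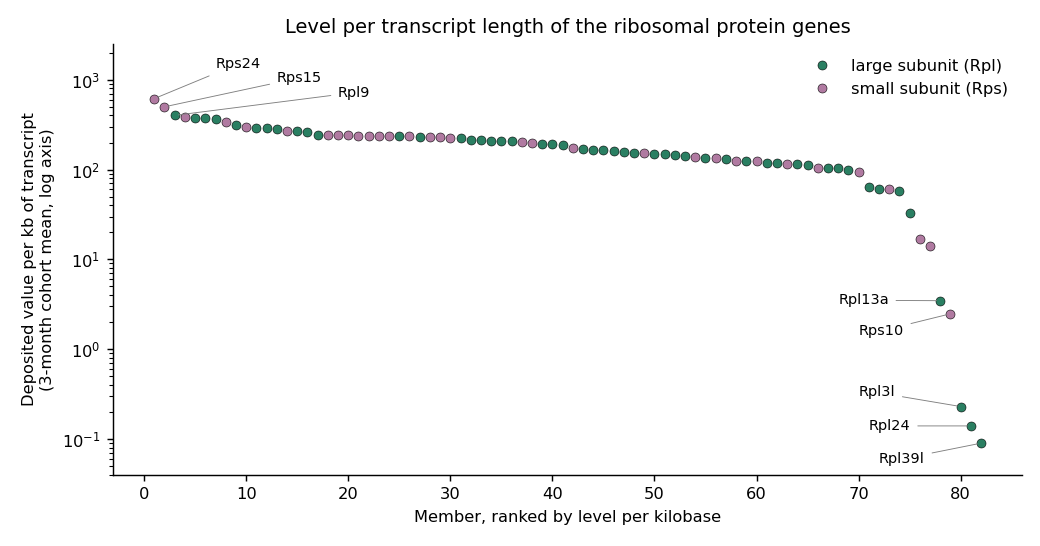
Level of each member per kilobase of transcript (deposited value, mean of the 29 libraries of the 3-month cohort, log axis), ranked from high to low and coloured by subunit prefix. 82 members are shown, since Rpl10l was at 0 and 6 have no transcript length. Most lie between 50 and 616, and Rpl13a, Rps10, Rpl3l, Rpl24 and Rpl39l stand far below.

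Rpl24, Rps10 and Rpl13a are constitutive parts of the ribosome, yet they stood among the lowest members. Rpl24 had a median of 5 reads per library in the 3-month and 4 in the 12-month cohort, and 0.14 per kilobase. Rps10 stood at 2.48 and Rpl13a at 3.47 per kilobase in the 3-month cohort. Each of them shares most of its exonic bases with another annotated gene on the same strand: 71.5% of Rpl24 with Gm28037, 91.6% of Rps10 with the readthrough gene RPS10-NUDT3, and 59.3% of Rpl13a with Gm45713 and Mir5121. The deposited values of Gm28037, Gm45713 and Mir5121 were 0 in every library, and RPS10-NUDT3 has no entry under that name.

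Rpl35 and Rpl23a share 68.3% and 55.4% of their exonic bases with genes on the opposite strand and were not low, with 103 and 293 per kilobase. The part of the overlap in the low values was not tested, since the counting rule is not given in the sources used here. Nor is the use of strand, so reads of Rpl35 and Arpc5l (mean value 66.1 in the 3-month cohort), of Rpl23a and Tlcd1 (13.7), and of Rpl5 and Fam69a cannot be told apart. In all, 14 protein-coding members share exonic bases with another gene. Ribosomal protein genes also have many processed copies elsewhere in the genome, between which the counting could split reads.

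The summed level of the members was highest at 5 mpi in the 3-month cohort. In Ctrl libraries of that cohort it was 10887 ± 333 (SD, n = 5, range 10431 to 11351) at 1 mpi, 11698 ± 410 (n = 5, 11081 to 12215) at 3 mpi and 12136 ± 366 (n = 5, 11532 to 12445) at 5 mpi. Every Ctrl library at 5 mpi was thus above every one at 1 mpi, and 3 mpi overlapped both. In AD libraries it was 11567 ± 480 (n = 6, 10869 to 12151), 11605 ± 299.8 (n = 5, 11285 to 12056) and 12139 ± 528 (n = 3, 11569 to 12612). The AD groups overlapped one another and the Ctrl groups of their time.

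In the 12-month cohort the highest means were those at 1 mpi. Ctrl libraries summed to 12032 ± 553 (n = 5, 11486 to 12801) at 1 mpi, 11466 ± 797 (n = 6, 10567 to 12859) at 3 mpi and 11442 ± 682.5 (n = 7, 10897 to 12845) at 5 mpi. AD libraries summed to 12395 ± 920.5 (n = 6, 11349 to 14080), 11398 ± 448 (n = 6, 10705 to 11797) and 11258 ± 549.7 (n = 7, 10404 to 12081). All of these ranges overlap.

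In some libraries most members lay on the same side of their group mean. Over 75 of the 84 tested members lay above it in 3 of 29 libraries at 3 months and in 5 of 37 at 12 months. Under 9 did so in 4 and 5 libraries. The libraries named next were picked for their extreme sums, from which such counts follow in part. In the AD library of 1 mpi numbered 2 of the 12-month cohort, with the sum of 14080, 83 of the 84 tested members lay above their group mean. The Ctrl libraries numbered 4 at 3 mpi (12859; 83 members above) and 2 at 5 mpi (12845; 82 above) of that cohort were alike. At the other end, the Ctrl library numbered 3 at 3 mpi (10567) had 2 members above its group mean. Without the high library, the 1 mpi AD mean was 12058 ± 456 (n = 5), and without library 2 the 5 mpi Ctrl mean was 11208 ± 316 (n = 6).

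**Figure D2:**
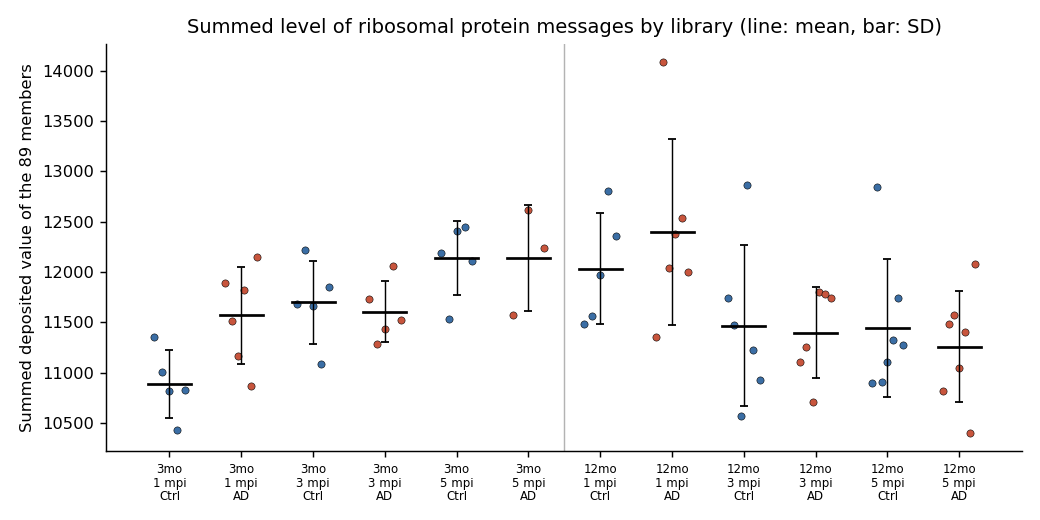
Summed deposited value of the 89 members in each of the 66 libraries, by cohort, time and extract (points; line: mean, bar: SD). In the 3-month cohort the Ctrl libraries run from 10431 to 11351 at 1 mpi and from 11532 to 12445 at 5 mpi, while the 12-month groups overlap and hold single high libraries such as the one at 14080.

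The effect of the AD extract was asked of each member at each time, with limma-trend on log2(value + 1) and Benjamini-Hochberg adjustment over all genes tested (19976 at 3 months, 20084 at 12 months). Calls were made where the adjusted p was below 0.05. Of the 89 members, 84 passed the filter on low reads in each cohort, and Rpl39l, Rpl10l, Rps12l1, Rpl24 and Rpl32l did not. In the 3-month cohort 0 of 84 members were called at 1, 3 or 5 mpi or over their mean, and neither were any by edgeR's quasi-likelihood test or DESeq2. Of all genes 0% were called there, and over the mean of the times 11 members (13.1%) had an unadjusted p under 0.05, against 3.95% of all genes.

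The most even pattern was that at 1 mpi in the 3-month cohort. There 77 of 84 members had a higher mean in AD, with a median log2 difference of 0.08 against 0.01 over all genes, and 31 members (36.9%) had an unadjusted p under 0.05, each of them higher, against 5.04% of all genes. Members share libraries, so these are not separate observations. The Ctrl libraries compared here had the lowest mean sum of that cohort, 10887. They also enter the Ctrl changes from 1 mpi and the comparison of those changes between the cohorts below. Those results are not independent of this one. Rpl35, a large-subunit protein beside the exit of the peptide tunnel, had 89.1, 86.6, 90.3, 79.2 and 82.5 in Ctrl and 106, 89.6, 94.8, 97.4, 93.2 and 94.9 in AD. These groups overlap by the lowest AD library alone, and the log2 difference of 0.16 (SE 0.04) did not pass (limma adjusted p = 0.916). Rpl11, which can also bind the p53 regulator Mdm2, differed by 0.13 (SE 0.04, limma adjusted p = 0.916).

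Markers of oligodendrocytes and microglia, 5 of 5 each, also had higher means in AD at this time, with medians of 0.20 and 0.16, and none was called. Their part in the members' values was not tested. At 3 mpi and 5 mpi the members' medians were −0.01 and −0.01, with 16 and 2 members at an unadjusted p under 0.05 (19% and 2.38%, against 4.56% and 4.62% of all genes). Rps29, a small zinc-binding protein of the small subunit, had 38.3, 49.4, 41.5, 40.8 and 45.2 in Ctrl and 57.6, 55.5, 46.1, 49.8 and 56.1 in AD at 3 mpi. Its lowest AD library lay below the highest Ctrl library, and its difference of 0.295 (SE 0.08) was not called (limma adjusted p = 0.961).

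Paralogs and near copies were among the few members whose groups did not overlap. There were 3 of 84 such members at 1 mpi in the 12-month cohort, against 1.48% of all genes. At 5 mpi in the 3-month cohort, with 3 AD libraries, there were 2 of 84, against 4.2% of all genes. The members' share was thus not above the background at the latter. Rps27l, a p53-responsive paralog of Rps27, had 7.32, 7.38, 8.35, 7.76 and 7.32 in 12-month Ctrl at 1 mpi and 9.27, 10.4, 10.1, 9.74, 12.3 and 10.7 in AD. The groups do not overlap, and the log2 difference of 0.40 (SE 0.11) had a limma adjusted p of 0.178. At 5 mpi in the 3-month cohort it went the other way, with 7.28, 8.29, 8.31, 7.73 and 8.32 in Ctrl and 6.31, 6.51 and 7.27 in AD, a difference of −0.22 (SE 0.10, limma adjusted p = 1). Rps4l, an annotated pseudogene, had 14.9, 15.0, 19.4, 17.8 and 20.7 against 23.3, 22.6 and 22.2 there, also without overlap (0.36, SE 0.16, limma adjusted p = 1).

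In the 12-month cohort 0 of 84 members were called for the extract by limma, edgeR or DESeq2 at any time or over the mean of the times. Of all genes, limma called 0.00996% over the mean, 0.00498% at 1 mpi, 0% at 3 mpi and 0.0548% at 5 mpi. Members at an unadjusted p under 0.05 numbered 2, 10, 4 and 6 (2.38%, 11.9%, 4.76% and 7.14%). Over all genes the shares were 15.3%, 12.1%, 3.96% and 8.49%, so the members were near or below the background. The medians were 0.00 (0.0012), 0.04, −0.01 and −0.03. Members whose groups did not overlap numbered 3 at 1 mpi (all genes: 1.48%), 0 at 3 mpi (0.179%) and 0 at 5 mpi (0.174%). At 3 months of age there were 3 such members at 1 mpi (0.18%), 4 at 3 mpi (2.07%) and 2 at 5 mpi (4.2%).

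Over the mean of the times, 77 members had a Ctrl level above 10, and their 95% intervals for the log2 difference AD minus Ctrl lay between −0.18 and 0.24 at 3 months and between −0.17 and 0.17 at 12 months. Differences at a single time are less precise and are not bounded by these intervals. The change of the AD difference from 1 to 5 mpi gave 0 calls among members in both cohorts by limma, edgeR and DESeq2, against 0% and 0.00498% of all genes, and 8 and 13 members at an unadjusted p under 0.05 (9.52% and 15.5%, against 4.07% and 5.83% of all genes). Its medians were −0.09 and −0.08. Between the cohorts the AD difference passed for 0 of 85 members by limma, edgeR and DESeq2 (0% of all genes), with 6 at an unadjusted p under 0.05 (7.06%, against 5.52% of all genes).

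**Figure D3:**
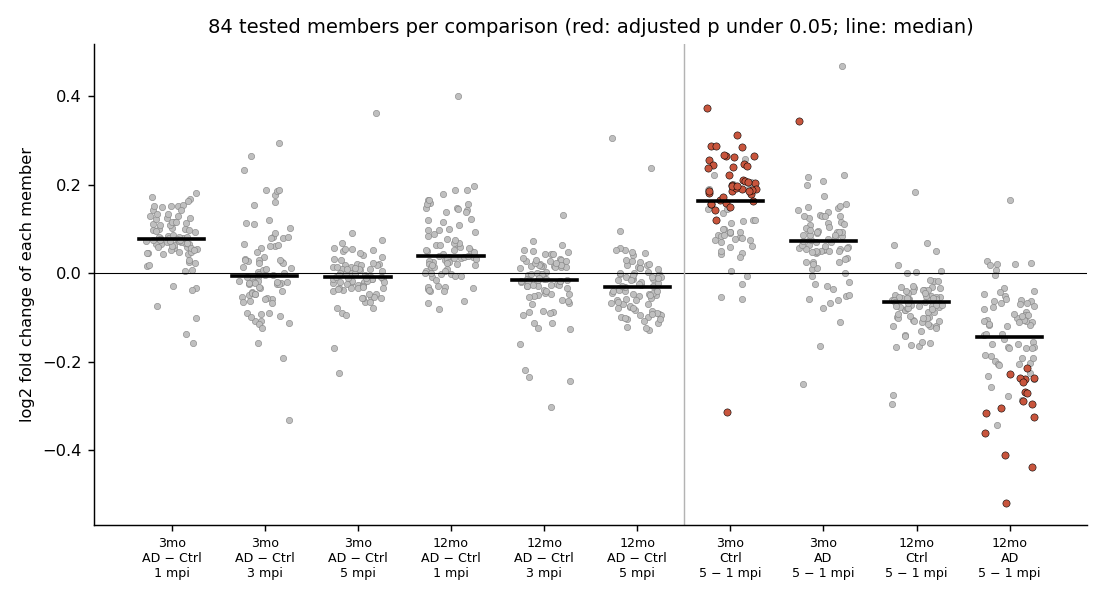
log2 fold change of each of the 84 tested members in 10 comparisons: AD minus Ctrl at 1, 3 and 5 mpi in both cohorts (left), and 5 minus 1 mpi within Ctrl and within AD (right). Red points passed an adjusted p under 0.05, and lines are medians. Calls appear on the right only: 41 upward and 1 downward (Rps3a2) in 3-month Ctrl libraries, 1 upward in 3-month AD and 17 downward in 12-month AD libraries.

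In Ctrl libraries of the 3-month cohort, 41 of 84 members were higher at 5 mpi than at 1 mpi and 1 was lower, while 9.19% of all genes were called (5.13% higher, 4.06% lower). Upper-quartile scaling left 29 members higher and 1 lower, and it moved the split over all genes from 1025 higher of 1836 called to 577 of 1419. The median log2 difference of the members was 0.16, that of all genes 0.00 (0.004), and 79 of the 84 were positive. The 41 ran from 0.12 to 0.37. The groups did not overlap for 38 members, 37 of them higher at 5 mpi, against 7.76% of all genes. Both subunits took part, with 27 of 49 Rpl members higher (median 0.18) and 14 of 35 Rps members higher and 1 lower (median 0.16).

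Among proteins of the large subunit, Rpl11 had the smallest p. It read 147, 147, 138, 142 and 145 at 1 mpi and 172, 164, 165, 180 and 169 at 5 mpi, so that all 5 later libraries were above all 5 earlier ones. Its log2 difference was 0.24 (SE 0.04, limma adjusted p = 0.000509). Rpl36, a small protein of that subunit, had 45.6, 48.7, 42.7, 45.9 and 47.2 against 55.5, 52.7, 56.2, 63.0 and 60.1, again without overlap, a difference of 0.31 (SE 0.07, limma adjusted p = 0.00932). Rpl35 read 89.1, 86.6, 90.3, 79.2 and 82.5 against 109, 99.2, 96.9, 108 and 103, a difference of 0.27 (SE 0.04, limma adjusted p = 0.000956).

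The abundant core proteins Rpl3 and Rpl4 rose by 0.19 each. Rpl3, which lies at the peptidyl transferase centre, had 408, 403, 369, 391 and 398 at 1 mpi and 440, 432, 464, 444 and 460 at 5 mpi. Rpl38, known for its part in translating Hox messages, was higher by 0.24 (SE 0.06, limma adjusted p = 0.0179), from 45.0, 40.7, 42.2, 37.4 and 40.4 to 52.1, 47.5, 46.2, 51.5 and 47.0. The smallest called difference was that of Rpl9, 0.12 (SE 0.03, limma adjusted p = 0.0211): 262, 260, 272, 245 and 255 against 286, 268, 283, 293 and 276. Its groups overlap, and its call was lost without library 4 of 1 mpi, without library 4 of 5 mpi, with upper-quartile scaling, with the choroid plexus covariate and when only the groups compared entered the fit.

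Among proteins of the small subunit, Rps21 led. It lies at chr2:180257377-180258445 on GRCm38 and encodes one of the smallest proteins of that subunit. Its values were 82.7, 78.8, 75.2, 76.5 and 80.1 at 1 mpi and 106, 97.6, 95.2, 109 and 104 at 5 mpi, and no library of one time reached into the other. The log2 difference was 0.37 (SE 0.07, limma adjusted p = 0.00194). Rps15 (chr10:80292453-80294114), which lies near the decoding site, read 232, 232, 203, 212 and 226 against 265, 256, 281, 280 and 268, a difference of 0.29 (SE 0.05, limma adjusted p = 0.00271). Rps23, which also lines the decoding site, read 133, 128, 123, 125 and 131 against 158, 143, 152, 160 and 149 (0.25, SE 0.04, limma adjusted p = 0.00211).

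Rpsa, the laminin-receptor protein of the small subunit, was higher by 0.19 (SE 0.05, limma adjusted p = 0.0208), with 337, 332, 346, 308 and 320 against 365, 352, 398, 389 and 372. Those groups do not overlap, but the call was lost without library 4 of 1 mpi and without library 3 or 4 of 5 mpi. The 1 member that was lower, Rps3a2, is annotated as a processed pseudogene of Rps3a1 and has few reads. Its values were 2.58, 2.99, 2.34, 2.39 and 2.61 at 1 mpi and 1.86, 1.61, 2.18, 1.92 and 1.84 at 5 mpi, a difference of −0.31 (SE 0.09, limma adjusted p = 0.0245), while Rps3a1 itself was higher by 0.16. The Rps3a2 call was lost without library 1 or 2 of 1 mpi and without library 2 or 5 of 5 mpi, without a filter and with the choroid plexus covariate.

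The remaining 42 members did not pass, and 38 of them were positive. Those not called include Rplp0, the stalk protein often used as a reference gene (0.06, limma adjusted p = 0.566), Rps4x (0.05), Rpl7 (0.04), Rpl10 (0.07), Rpl22 (0.08), Rps25 (0.08) and Rpl39 (0.06). Rps6, whose phosphorylation is a common readout of mTORC1, stood at 0.15 with a limma adjusted p of 0.0598. The paralogs Rpl22l1, Rps27l and Rpl7l1 were at −0.01, −0.05 and −0.02. Their partner Rps27 was called (0.20, limma adjusted p = 0.0457), a call that was lost without any of 15 single libraries and under each other scaling.

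**Figure D4:**
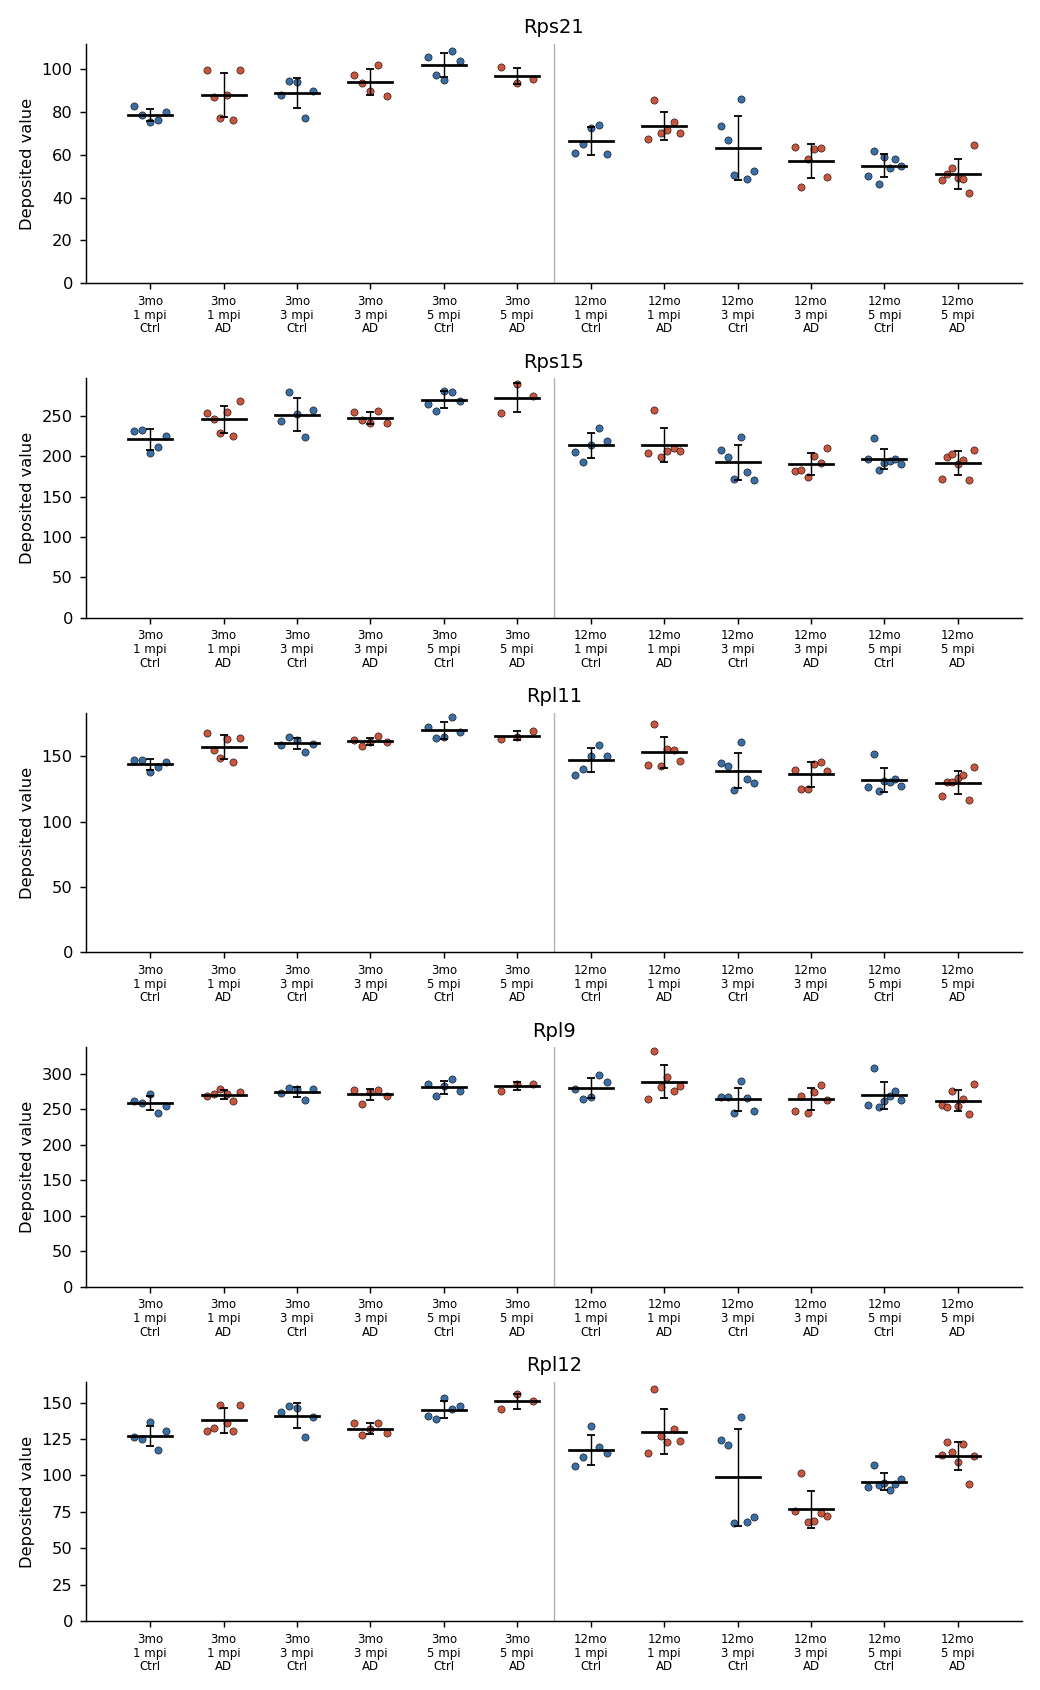
Deposited value of Rps21, Rps15, Rpl11, Rpl9 and Rpl12 in each library, by cohort, time and extract (points; line: mean, bar: SD; axes start at 0). Rps21, Rps15 and Rpl11 are higher at 5 mpi than at 1 mpi in 3-month Ctrl libraries, Rps21 is lower in the 12-month cohort, and Rpl12 falls into separate levels in the 12-month cohort at 3 mpi.

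Other genes of translation were read from lists chosen for their role. Of the 3 other ribosome parts, Fau, which encodes the small-subunit protein eS30 as a fusion, was higher by 0.23. Of 18 TOP messages that are not ribosomal proteins, 4 were higher, among them the initiation-factor genes Eif3f (0.17) and Eif3k (0.17), and the list's median was 0.05. Of 33 translation factors, Eef2k was higher (0.24) and Eif4g2 lower (−0.21), with a median of −0.02. Ribosome biogenesis had 1 of 33 higher (Nhp2, 0.23), mTORC1 and LARP1 genes 1 of 15 (Sesn2, 0.29), and snoRNA host genes 2 of 8 (Snhg8, 0.39, and Gas5, 0.20). Mitochondrial ribosomal proteins, which serve a separate ribosome, had 16 of 77 higher and 0 lower (Mrps28, 0.39, and Mrps18b, 0.32), with a median of 0.07.

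Other features moved between the same groups. Choroid plexus markers summed to 2312 to 5908 at 1 mpi and to 88.9 to 4304 at 5 mpi, with lower means for 6 of 6 at a median of −1.38 and 0 called. The microglial marker sum was 397 (376.8 to 412) at 1 mpi and 348.8 (334 to 358) at 5 mpi, without overlap. Of ependymal markers 2 of 3 were lower, of oligodendrocyte markers 2 of 5, and Rbfox3, 1 of 6 neuron markers, was higher. Lars2, read here as a sign of ribosomal RNA carry-over, was lower (−0.46). The sum over all features read as such carry-over ran from 1258.5 to 2150.7 at 1 mpi and from 854 to 2123 at 5 mpi, with overlap. Protein-coding genes with transcripts under 1000 bases had 117 higher and 28 lower of 1385, with a median of 0.03. With a choroid plexus score in the model, 46 members were higher and 0 lower. The part of the other markers and of transcript length was not tested.

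Between the ends lay smaller steps. From 1 to 3 mpi, 4 of 84 members were higher in 3-month Ctrl libraries (all genes: 1.8%, with 1.1% higher and 0.701% lower): Rpl3 by 0.15, Rpl11 by 0.15, Rps7 by 0.15 and Rpl4 by 0.14. That count was 0 by edgeR's quasi-likelihood test and 7 by DESeq2, and 45 members (53.6%) had an unadjusted limma p under 0.05, all higher, against 18.1% of all genes. The groups did not overlap for 10 members (all genes: 4.51%). No member was called without Ctrl library 3 or 4 of 1 mpi or without Ctrl library 1, 2, 3 or 5 of 3 mpi, 7 were without Ctrl library 4 of 3 mpi, and 2 without any of 9 others. From 3 to 5 mpi limma called 0 members (0.00501% of all genes), edgeR 0 and DESeq2 2, with 22 (26.2%) at an unadjusted p under 0.05, against 9.01% of all genes. Groups without overlap were seen for 3 members (all genes: 2.82%). Rps29 gave the smallest p there, 0.37 (SE 0.08, limma adjusted p = 0.0931).

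In AD libraries of the 3-month cohort, which share none with the Ctrl groups, 1 of 84 members was called between 1 and 5 mpi (all genes: 5.69%, with 1.99% higher and 3.7% lower). The count was 9 with upper-quartile scaling, 4 by edgeR, 5 by DESeq2, 5 with the replicate block, 4 with the stricter filter, and 0 without a filter or with only the groups compared. The member called was Rps29, with 48.3, 46.5, 41.0, 47.4, 34.8 and 49.4 at 1 mpi and 55.6, 54.2 and 59.7 at 5 mpi, which do not overlap. Its difference was 0.34 (SE 0.09, limma adjusted p = 0.0291). The groups did not overlap for 7 members (all genes: 7.31%). The Rps29 call was lost without AD library 1 or 3 of 5 mpi. No member passed when the latter was left out, and 9 passed when AD library 6 of 1 mpi was left out. All 41 members called higher in Ctrl were positive in AD too, from 0.05 to 0.34, with a median of 0.10. Over all 84 tested members 70 were positive, with a median of 0.07. The 5 mpi AD group has only 3 libraries. The difference between the AD and the Ctrl change is the AD effect from 1 to 5 mpi given above, in which no member passed.

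In the 12-month cohort Ctrl libraries gave 0 called members from 1 to 3, 3 to 5 and 1 to 5 mpi by limma, edgeR and DESeq2 (all genes by limma: 0.0199%, 0.214% and 0.0249%), with 9, 1 and 9 members at an unadjusted p under 0.05 (10.7%, 1.19% and 10.7%, against 8.31%, 9.8% and 6.81% of all genes). The medians were −0.06, −0.01 and −0.07. None of the 41 members that were higher with time in 3-month Ctrl was positive from 1 to 5 mpi here, and their values ran from −0.29 to −0.02. Over all 84 tested members only 8 were positive.

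In AD libraries of the 12-month cohort, 17 of 84 members were lower at 5 mpi than at 1 mpi and 0 were higher, against 0.762% of all genes called (0.602% lower). The median was −0.14, and 9 of the 17 belong to the large and 8 to the small subunit. The groups did not overlap for 11 members, against 0.642% of all genes. The count fell to 10 with upper-quartile scaling and to 3 when only the 2 groups entered the fit. In Ctrl libraries of this cohort the same change had a median of −0.07, with 8 of 84 members positive and 0 called. The AD and the Ctrl change were compared in the AD effect from 1 to 5 mpi given above, in which no member passed. A decline particular to the AD extract was thus not shown.

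Rps21 was the lowest of these. Its values at 1 mpi ran from 67.6 over a median of 70.95 to 85.5 (n = 6), and at 5 mpi from 42.0 over 49.3 to 64.4 (n = 7), without overlap. The log2 difference was −0.52 (SE 0.10, limma adjusted p = 0.0117). Rpl39, a small protein of the tunnel wall, went from 41.4, 45.6 and 53.3 (lowest, median, highest) to 27.8, 35.6 and 40.9, a difference of −0.44 (SE 0.08, limma adjusted p = 0.00972). Rps27 went from 137, 149 and 168 to 87.2, 116 and 128 (−0.41, SE 0.07, limma adjusted p = 0.00735).

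The smallest p-values were those of Rpl23, a protein at the intersubunit face, and Rps6. Rpl23 had 206, 219 and 232 at 1 mpi and 159.8, 175 and 197 at 5 mpi, a difference of −0.29 (SE 0.05). Rps6 had 224, 233 and 254 at 1 mpi and 178, 194 and 210.3 at 5 mpi, a difference of −0.27 (SE 0.05). Both had a limma adjusted p of 0.00324 and no overlap. The acidic stalk protein Rplp2 was lower (−0.36), as was its anchor Rplp0 (−0.23), the latter with overlapping groups. The called member nearest to 0 was Rpl27a with −0.21 (SE 0.05, limma adjusted p = 0.0228), which was lost without AD library 2, 4 or 5 of 1 mpi and without AD library 1 or 6 of 5 mpi.

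Beside these, Tpt1, the translationally controlled tumour protein gene, was the 1 of 18 other TOP messages that passed (−0.22), and Mrps6 (−0.37) the 1 of 77 mitochondrial ribosomal proteins. No gene of ribosome biogenesis (33) or translation factors (33) passed by limma. Choroid plexus markers summed to 1187 to 8024 at 1 mpi and 176 to 7091 at 5 mpi (lower means for 6 of 6, median −1.41, 0 called), Aqp4, 1 of 4 astrocyte markers, was lower (−0.36). The microglial marker sum was 497 (453 to 571) at 1 mpi and 429.8 (380.1 to 475) at 5 mpi. Ependymal markers summed to 32.9 (23.8 to 41.1) and 23.6 (15.6 to 39.0), and markers of thalamus and habenula to 153 (119 to 213) and 125 (112 to 136). These ranges overlap. Erythroid markers had higher means in 5 of 5, with a median of 0.67 and 0 called. Of 1400 short protein-coding genes, 25 were lower and 1 higher. With the choroid plexus score in the model 23 members were lower. The part of the other features was not tested.

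The time changes of the cohorts were compared in a joint fit of both tables, scaled together (21297 genes, 85 members). The change from 1 to 5 mpi in Ctrl libraries differed between the cohorts for 16 of 85 members, in each of them lower at 12 months, against 2.76% of all genes (1.37% higher, 1.39% lower), with a median of −0.22. Rps21 had −0.64 (SE 0.14, limma adjusted p = 0.00637), Rpl36 −0.46 (SE 0.11, limma adjusted p = 0.00999) and Rps15 −0.39 (SE 0.09, limma adjusted p = 0.00956). At the near end were Rpl4 and Rpl3 with −0.25 each and Rpl21 with −0.24 (limma adjusted p = 0.0383). All 3 were lost with upper-quartile scaling, Rpl3 also without Ctrl library 3 (3-month) or 4 (12-month) of 1 mpi, and Rpl21 without any of 13 single libraries. The count was 34 without Ctrl library 2 of 5 mpi of the 12-month cohort, the high library named above, and 7 without Ctrl library 4 of 1 mpi of that cohort. It was 9 without Ctrl library 3 of 1 mpi and 8 without Ctrl library 4 of 5 mpi of the 3-month cohort.

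Between the cohorts as such, averaged over the times in Ctrl libraries, members went both ways. Of 85 members 15 were higher and 25 lower at 12 months, in a comparison in which 20.7% of all genes were called (10% higher, 10.7% lower), with a median of −0.02. The 15 are 11 of the large and 4 of the small subunit, and the 25 are 11 and 14. Age and the table a library belongs to go together here, so the effects of age and of a batch cannot be told apart. Of the 25 lower members, 4 are annotated pseudogenes, and 34 of 90 named ribosomal protein pseudogenes outside the members were lower as well, with 1 higher.

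The lowest was Rps21. In the joint scaling its 3-month Ctrl libraries ran from 76.4 over a median of 90.2 to 109 (n = 15) and its 12-month ones from 46.1 over 59.9 to 85.8 (n = 18), which overlap in a few libraries. The log2 difference was −0.56 (SE 0.06, limma adjusted p = 6.96e-11). Rpl12, a base protein of the stalk, had 119, 141 and 153 against 67.5, 102 and 139.6, a difference of −0.44 (SE 0.06, limma adjusted p = 5.23e-07). Rps28 followed with −0.34, from a mean of 24.4 to 18.9.

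Higher at 12 months was Rps19, a small-subunit protein mutated in Diamond-Blackfan anaemia. It ran from 66.1 over 75.1 to 80.9 at 3 months and from 77.6 over 87.6 to 102 at 12 months, so the ranges overlap at their ends. The difference was 0.26 (SE 0.04, limma adjusted p = 2.87e-07). Rps4x, encoded on the X chromosome, was higher by 0.21 (SE 0.03, limma adjusted p = 7.90e-08), and Rpl5, which with Rpl11 and 5S RNA forms a complex of its own, by 0.19. Rpl11 was lower (−0.19), so the messages of Rpl5 and Rpl11 differed in opposite directions. Proteins were not measured, and reads of Rpl5 and Fam69a cannot be told apart here.

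**Figure D5:**
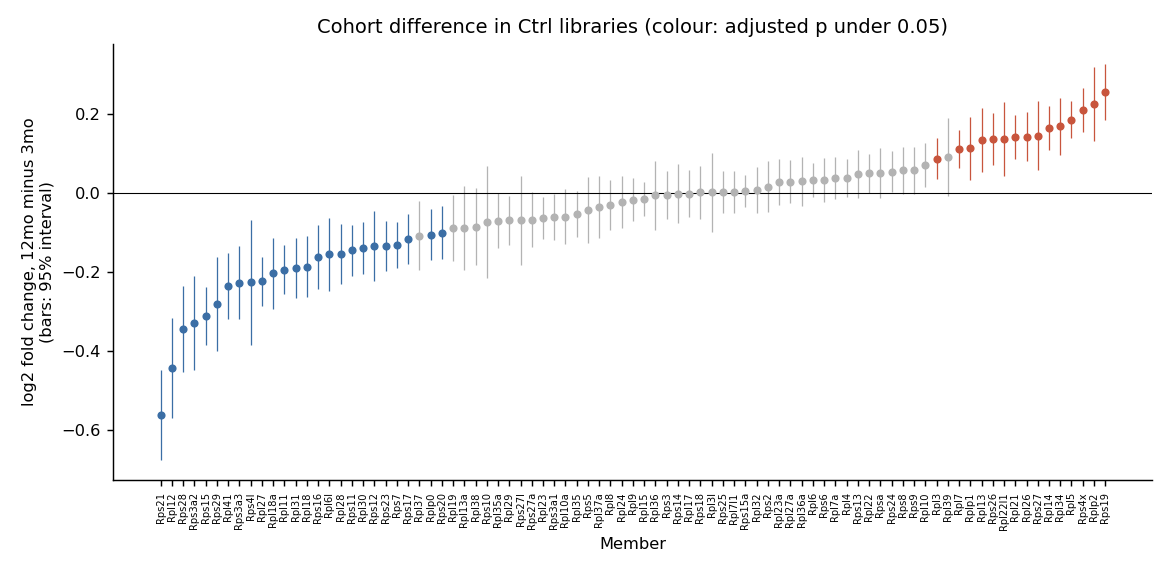
log2 fold change, 12-month minus 3-month Ctrl libraries averaged over the times, for each of the 85 members in the joint fit (points; bars: 95% interval; red higher and blue lower at an adjusted p under 0.05, grey not called). Rps21 lies lowest at −0.56 and Rps19 highest at 0.26, with 25 blue and 15 red members.

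Beside the cohort difference, 6 of 6 choroid plexus markers were lower at 12 months (median −1.49), 3 of 5 oligodendrocyte markers were lower and 3 of 5 microglial markers higher. Other TOP messages had 8 of 18 higher and 3 lower, among the former Naca (0.30) and Eef1b2 (0.21), translation factors 11 of 33 higher and 3 lower, and mitochondrial ribosomal proteins 19 of 77 higher and 8 lower. With a choroid plexus score in the model, 12 members were higher and 23 lower.

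Rpl12 had a pattern of its own within the 12-month cohort, singled out here after its values were seen because its spread within groups was the widest of the 84 members there (SD 0.24 on the log2 scale, against a member median of 0.10). At 3 mpi the Ctrl libraries read 124, 121, 67.3, 139.8, 68.3 and 71.4, and the AD libraries 75.7, 102, 68.03, 68.6, 74.2 and 72.5. Of these 12, 8 lay between 67.3 and 75.7 and 4 between 102 and 139.8. All libraries at 1 mpi were above the 8 low ones, from 106 to 134 in Ctrl and from 116 to 159 in AD.

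At 5 mpi Rpl12 ran from 89.7 to 108 in Ctrl and from 94.2 to 123 in AD, again above those 8. No library of the 3-month cohort lay below 117. The summed level of all members was also lower in the 3 low Ctrl libraries of 3 mpi, with 10567, 11226 and 10928, than in the 3 others, with 11745, 11470 and 12859. Of the 84 tested members, 2, 20 and 10 lay above the group mean in the former and 64, 42 and 83 in the latter. In the AD libraries of 3 mpi this was not seen. The library with 102 for Rpl12 summed to 11258, with 28 members above its group mean. The low AD libraries summed to 11109, 10705, 11797, 11777 and 11740, with 30, 9, 69, 64 and 50 above. Rps21 was lower in the same 3 Ctrl libraries, with 50.8, 48.8 and 52.4 against 73.7, 67.0 and 86.0. Between the extracts, Rpl12 differed by −0.30 at 3 mpi and by 0.24 at 5 mpi, neither of them called (limma adjusted p = 0.995 and 0.589).

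Apart from such cases, the median spread of members within groups was smaller than that of all genes tested. Genes of like level were not compared. The median SD within groups was 0.08 on the log2 scale over members and 0.13 over all genes tested in the 3-month cohort, and 0.10 and 0.15 in the 12-month cohort. Rpl9, Rpl15 and Rpl14 varied least at 3 months (0.04 each), and Rps15a, Rpl6 and Rpl15 at 12 months (0.06 each). At the other end were Rps4l (0.23), Rps10 and Rpl22l1 at 3 months, and Rpl12, Rps10 and Rps4l at 12 months.

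Transcript length and base content were the features left to compare. From 1 to 5 mpi in 3-month Ctrl the median log2 difference was 0.19 in the shortest, 0.16 in the middle and 0.15 in the longest length class (26, 27 and 27 members), with 13, 14 and 14 called higher. Across these 80 members, which share libraries and are not independent, Spearman's rho of the difference was −0.26 with length and 0.38 with GC content. In 12-month AD the medians were −0.19, −0.14 and −0.12, so that the shortest messages again lay farthest from 0. The calls did not follow length there, with 6, 4 and 7 members lower. Spearman's rho was 0.26 with length and 0.2 with GC content, the latter of the same sign as in 3-month Ctrl though the members went the other way. For the cohort difference they were −0.03, −0.02 and 0.02.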

How the data were processed

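The submitters' processing notes name the aligner STAR, the tool set Picard, edgeR and the build GRCm38. Versions, annotation, counting rule and strand: not given in the sources used here. Poly(A) RNA was isolated with NEBNext reagents, per the labels' protocols. The deposited values (unit: signal) are reads scaled to library size and divided by 1 factor for each library. They are whole multiples of 1 read's value, and whole reads were recovered for 100% of values (tolerance 0.01). Because they are not raw counts, limma 3.58.1 in R 4.3.3 was used as planned for that case: limma-trend on log2(value + 1), 1 mean per group, spread shared over a cohort's 6 groups, genes kept by edgeR 4.0.16's filterByExpr on recovered reads. Folds on this scale understate low genes. The joint fit used TMM (trimmed mean of M values) scaling of recovered reads over both tables. DESeq2 1.42.0 and edgeR were run on recovered reads. The fit was tested on simulated data for 5 against 1 mpi in 3-month Ctrl, with the same spread for all genes. It recovered 32.8% of 67 genes changed 1.25-fold, 97% at 1.5-fold and 100% at 2-fold, and 4.4% of calls were false. Small differences can therefore go uncalled. Named per comparison are the 3 highest and 3 lowest called members, fixed members and paralogs, extremes of level and spread; others, such as Rpl11, Rpl35, Rps23, Rps4l and Rpl12, were picked after their values were seen. The members, lists and added comparisons of 5 with 1 mpi were chosen with earlier results of these data known. Coordinates and lengths come from GENCODE (GRCm38), with the shortest consensus coding transcript per gene. The result of 1 marker gene is not reported here.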

Additional observations from a re-analysis of the deposited data

Results flagged for a closer look

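In groups of 4 to 10 libraries, 21 members and the summed level were searched for single libraries that stand apart (242 member and group combinations; chance gives about 1 in 20, and the group of 3 was not searched). There were 13 such values, which is near the chance rate. Values of one library, and its sum, are not independent of each other. Ctrl library 2 of 5 mpi in the 12-month cohort stood apart upward in the summed level, 12845 against 10897 to 11737 in the others, and in Rpl11 (151.4), Rpl9 (309.0), Rps15 (223.0) and Rps27 (142.6). AD library 2 of 1 mpi in that cohort stood apart upward in Rps15 (256.7), Rps19 (114.5) and the pseudogene Rps3a2 (2.844).

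AD library 2 of 3 mpi in the 12-month cohort had an Rpl12 value of 101.9 against 68.03 to 75.7. In the 3-month cohort, Ctrl library 4 of 3 mpi stood apart downward in Rpl27a (155.4) and Rps4x (217.0). Rpl21 was high in Ctrl library 1 of 5 mpi (356.6 against 333 to 338), and Rps27 in Ctrl library 1 of 1 mpi (121.0 against 101 to 103).

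The change from 1 to 5 mpi in Ctrl libraries differed between the cohorts by limma's test of the difference itself for 16 members. Those named by rule are Rps21 (−0.64), Rpl36 (−0.46) and Rps15 (−0.39) at the far end and Rpl3 (−0.25), Rpl4 (−0.25) and Rpl21 (−0.24) at the near end, each with an adjusted p under 0.05 and lower at 12 months.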

How the results depend on the processing

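The alternatives were other scalings, library-size scaling alone, other filters, a pseudocount of 0.1, edgeR, DESeq2, robust spread, a choroid plexus covariate, only the groups compared, each table as deposited for the joint fit, and each library left out. No called value changed sign, and of 39 called member values named by rule 17 kept their call under every alternative. All comparisons of AD with Ctrl gave 0 under each. The 42 calls of 5 against 1 mpi in 3-month Ctrl ranged from 30 to 47, and from 33 to 48 with a library left out; the 40 of the cohort difference from 35 to 41 and from 38 to 42. The causes of the following moves were not tested.

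For 3 against 1 mpi in 3-month Ctrl (4 calls), relative-log-expression and upper-quartile scaling, edgeR and only the groups compared gave 0. No filter, robust spread and the choroid plexus covariate gave 2, and DESeq2 7. Leaving out libraries gave 0 to 7, with 0 without any 1 of Ctrl 3 or 4 of 1 mpi and Ctrl 1, 2, 3 or 5 of 3 mpi. The limma adjusted p of these calls was 0.0362 to 0.0474 in the main fit, near the limit of 0.05. For 5 against 3 mpi (0 calls), DESeq2 gave 2, only the groups compared 1, and libraries left out 0 to 1. For 5 against 1 mpi in 3-month AD (1 call), upper-quartile scaling gave 9, no filter 0, the stricter filter 4, edgeR 4, DESeq2 5 and only the groups compared 0; the range was 0 (without AD 3 of 5 mpi) to 9 (without AD 6 of 1 mpi). For 12-month AD (17 calls), upper-quartile scaling gave 10 and only the groups compared 3, with 12 to 22 when libraries were left out. For the cohort difference of the Ctrl time change (16 calls), upper-quartile scaling gave 5, library-size scaling alone 29, the stricter filter 26, DESeq2 29 and each table as deposited 25, with 7 to 34 when libraries were left out.

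With the replicate number as a replicate block, the 3-month AD count was 5 in place of 1, and no other count moved by over 1.5 times. The numbers do not pair the libraries: the correlation of deviations of same-numbered libraries ran from −0.46 to 0.64 over 65 pairs in the 3-month and from −0.45 to 0.41 over 86 pairs in the 12-month cohort, and 10 and 14 libraries correlated best with their own number.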
